A study of Mus musculus with 18 samples.

Results

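H3K9me3 was called in both *Uhrf1* KO and *Dhx9* KO mESCs, and in neither wild-type library, at 940 regions of the genome. These regions were chosen by measured values: overlapping or touching peaks of 6 peak lists were merged on chromosomes 1 to 19, and a merged region was kept when each of the 4 knockout lists had a peak in it and neither wild-type list had one. They are 940 of 154338 merged regions, and 2.5% of the 37609 regions with a peak in all 4 knockout lists. Since presence and absence of peaks chose them, that count and the peak strengths below are a description and were not tested. The *Uhrf1* KO lists also hold other background reads than the wild-type lists, as described below. A gain in *Uhrf1* KO therefore cannot be told apart from a difference in background.

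All cells are E14TG2a, a male mouse embryonic stem cell line grown with serum and LIF on gelatin. The 3 groups, labelled WT, UHRF1KO and DHX9KO, have 2 libraries each, all made with the same H3K9me3 antibody. *Uhrf1* KO cells are clonal CRISPR lines made from cells that carry a reporter for heterochromatin on chromosome 2. These cells also carry TetR-KRAB, a repressor of that reporter, at *Rosa26*. The paper's legends name the wild-type cells compared with *Uhrf1* KO as reporter cells too. How the *Dhx9* KO cells were made was not found in the sources used here. The labels do not say whether the 2 libraries of a genotype are separate clones or cultures, so that a difference between genotypes cannot be told apart from one between clones, and p-values measure only the spread between these libraries.

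H3K9me3 is the histone mark of constitutive heterochromatin. It is laid down by SETDB1, recruited by KRAB zinc finger proteins and TRIM28 to transposons and imprinted loci, and by SUV39H1 and SUV39H2, which act mainly at pericentromeric and repeated DNA. UHRF1 binds methylated H3K9 and hemimethylated CpG and brings DNMT1 to replicated DNA, by which DNA methylation is copied. DHX9 is a helicase that unwinds RNA and RNA-DNA hybrids and is known to act on transcripts of inverted repeats.

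The central 200 bases of the stretch called in all 4 knockout lists are printed for some of these regions. Such a window need not have the composition of its whole region. The first has a GC content of 52.5%, and its region of 4000 bp has 37.7%. The first 4 below are from regions of at least 2 kb whose weakest peak among the 4 lists had the highest log2 fold over background (1 more is described below without its sequence). The next is from the region with the longest shared stretch. The sixth is from the strongest region that overlaps a promoter of a protein-coding gene, *Olfr1008*, but the shared stretch there is centred between genes. The last, on the promoter of the meiotic gene *Sycp3*, was added after its values were seen, because it was the only gained region on the list of germline genes. All are given on the plus strand of mm10 with each CG in capitals.
chr1:48290701-48290900: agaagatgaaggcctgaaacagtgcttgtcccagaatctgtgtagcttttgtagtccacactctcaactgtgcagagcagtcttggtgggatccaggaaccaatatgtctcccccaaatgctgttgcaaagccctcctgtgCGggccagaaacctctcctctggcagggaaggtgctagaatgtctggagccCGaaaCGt
chr6:20607901-20608100: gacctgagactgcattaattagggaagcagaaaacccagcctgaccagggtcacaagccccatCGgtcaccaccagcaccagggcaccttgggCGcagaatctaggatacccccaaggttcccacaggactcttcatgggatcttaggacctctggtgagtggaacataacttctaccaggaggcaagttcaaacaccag
chr6:18761801-18762000: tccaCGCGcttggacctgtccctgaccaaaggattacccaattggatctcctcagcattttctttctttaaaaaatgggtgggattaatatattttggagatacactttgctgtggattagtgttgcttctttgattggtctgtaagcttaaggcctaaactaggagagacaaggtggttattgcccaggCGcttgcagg
chr1:173026201-173026400: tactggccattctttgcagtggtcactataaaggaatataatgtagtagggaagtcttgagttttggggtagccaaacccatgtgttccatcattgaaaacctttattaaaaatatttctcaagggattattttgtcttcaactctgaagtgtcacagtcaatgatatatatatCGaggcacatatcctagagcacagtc
chr14:51593901-51594100 (*Gm17174* and *Gm5622*): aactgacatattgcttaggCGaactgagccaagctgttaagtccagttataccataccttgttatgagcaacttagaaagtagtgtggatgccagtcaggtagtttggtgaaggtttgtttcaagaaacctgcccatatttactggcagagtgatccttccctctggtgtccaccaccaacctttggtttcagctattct
chr2:85691501-85691700 (*Olfr1008*): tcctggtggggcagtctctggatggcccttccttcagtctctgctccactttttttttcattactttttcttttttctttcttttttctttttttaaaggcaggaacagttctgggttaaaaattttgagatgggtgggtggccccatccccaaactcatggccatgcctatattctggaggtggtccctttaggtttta
chr10:88459501-88459700 (*Sycp3*): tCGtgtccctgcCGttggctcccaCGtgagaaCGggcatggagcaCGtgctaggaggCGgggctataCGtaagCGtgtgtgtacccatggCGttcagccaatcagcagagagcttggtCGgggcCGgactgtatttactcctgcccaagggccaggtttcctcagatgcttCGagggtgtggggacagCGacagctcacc

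The first 3 windows were mostly or wholly repeat sequence, with 71%, 76% and 100% of their bases soft-masked, which marks interspersed and simple repeats in the reference. The windows at *Gm17174* and *Sycp3* held no masked base. CpG content differed as much: the *Sycp3* window had 13 CG dinucleotides and a GC content of 61%, and the *Olfr1008* window had 0 and 43%. To see whether the repeated windows mark a family, each was aligned to the central 1000 bases of the regions called in all 4 knockout lists, asking for at least 80% identity over at least 100 bases. The window of chr1:48290701-48290900 matched 9 of the other 939 gained regions (0.958%), beside 935 of the other 37608 regions (2.49%). The window of chr6:20607901-20608100 matched 7 gained regions (0.745%) and 869 regions in all (2.31%). The third, fully masked window matched 203 regions (0.54%), none of them gained. For each of these 3 windows, the share of gained regions that matched was below the share of all regions. Only 2.5% of the regions searched were gained, so most matches would lie in regions with a wild-type peak for any sequence. The windows of chr1:173026201-173026400, *Gm17174* and *Sycp3* matched no other region.

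Peaks at the gained regions were of middling strength in every knockout list. The median region held 46 and 82 ChIP reads in *Uhrf1* KO replicates 1 and 2, with 5th and 95th percentiles of 24 and 112 and of 45 and 176. In *Dhx9* KO replicates 1 and 2 it held 79 reads, between 44 and 172, and 103 reads, between 54 and 228. *Uhrf1* KO replicate 1 was low at these regions as it was elsewhere, with 6542496 reads inside all its peaks where the other 5 libraries had 16558383 to 20600757. Called bases of the gained regions summed to 2234, 2284, 2093 and 2529 kb in the same order of libraries, and the reads per kb called were 22.6, 38.1, 40.8 and 43.7. Over regions called in all 6 lists, the density was 31.6, 56.6, 52.3 and 57.0 reads per kb in the knockout libraries and 56.6 and 54.8 in wild-type replicates 1 and 2. The gained regions thus reached 71.5% and 67.2% of the density of shared regions in *Uhrf1* KO cells and 78.1% and 76.7% in *Dhx9* KO cells. Both *Dhx9* KO values are above both *Uhrf1* KO values, with a difference of -7.98 percentage points between the means (*Uhrf1* KO minus *Dhx9* KO). This difference is a description: reads inside the peaks chose the regions, and with 2 against 2 libraries an exact permutation test cannot give a p under 0.333.

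The log2 fold over background, as the authors' peak caller gives it, had medians of 1.59 and 1.50 in *Uhrf1* KO and 1.07 and 1.18 in *Dhx9* KO libraries. These folds are not on one scale. Where wild-type and *Dhx9* KO lists had a peak with the same limits, 100% of such peaks had the same number of background reads, and between the *Uhrf1* KO and the other lists 1.89% to 4.08% did. The *Uhrf1* KO lists therefore hold other background reads, although the study's methods name wild-type input as the background, and which input was used is not given in the sources used here. The rule itself compares *Uhrf1* KO with wild-type peaks across these different backgrounds. Within each list, the median gained region stood at the 52.7th, 60.6th, 62.6th and 62.8th percentile of log2 fold, so that it was close to or above the list's own median of 1.54, 1.26, 0.92 and 1.01. The regions called in all 4 knockout lists had higher median folds, 1.65, 1.67, 1.19 and 1.33 in the same order. Their percentiles were 56.3, 66.9, 71.4 and 72.0. Against the wild-type lists, which share their background with *Dhx9* KO, the median fold of the gained regions exceeded 51.7% to 59.6% of wild-type peaks. In reads, the median region of *Dhx9* KO replicates 1 and 2 exceeded 26.4% to 51.7% of wild-type peaks. A log2 fold of at least 1 was reached in all 4 lists by 356 gained regions (37.9%) and of at least 2 by 11 (1.17%). The lists hold no reads for a library without a peak, so the wild-type level at the gained regions was not measured here.

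**Figure D1:**
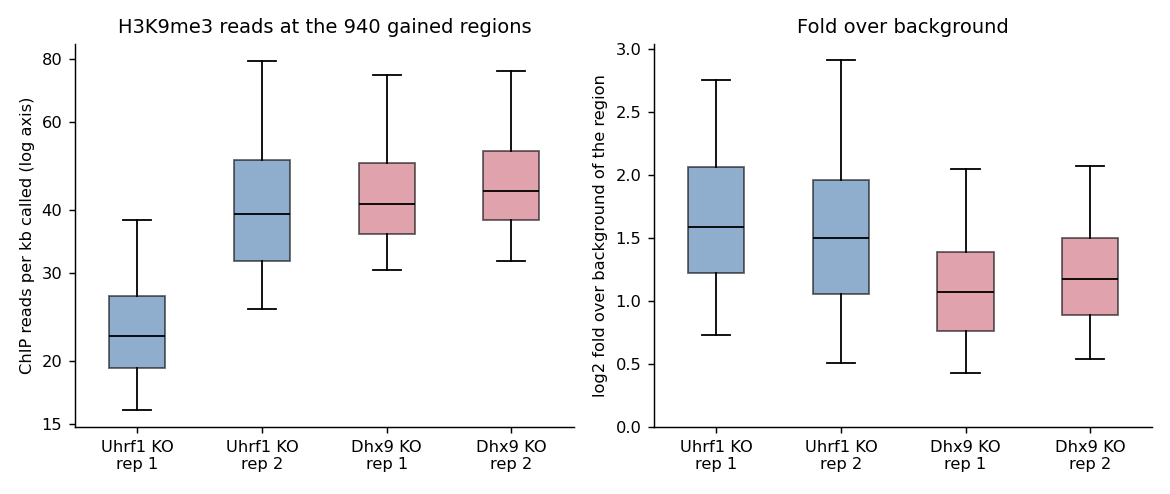
ChIP reads per kb called (left, log axis) and log2 fold over background (right) of the 940 gained regions in each knockout library. Boxes span the quartiles with the median as a line and whiskers reach the 5th and 95th percentiles. *Uhrf1* KO replicate 1 has the lowest reads per kb, and both *Uhrf1* KO libraries have the higher log2 folds, on other background reads than the *Dhx9* KO libraries.

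Strength agreed only in part between libraries. Across the 940 regions, Spearman's rho of the log2 fold was 0.58 between the *Uhrf1* KO replicates, 0.52 between the *Dhx9* KO replicates and 0.18 to 0.35 between libraries of different genotypes. Replicates of a genotype share their background reads, which enter both folds. Into reads per kb called, background enters only through the limits of the peaks. For this measure rho was 0.17 to 0.33 over all 6 pairs. The pairs within a genotype (0.26 and 0.30) lay inside the range of those between genotypes. These are correlations across regions of the same libraries, and regions are not independent replicates.

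The rule asks for peaks in one merged region, not for peaks at one position. In 869 of the 940 regions some stretch was called in all 4 knockout lists, with a median of 1000 bp and a maximum of 5200 bp. In the other 71 the peaks were only linked through each other. In 789 regions each list had a single peak, and 7 regions were called over their whole length in all 4 lists.

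At the edge of the rule lay gained regions with low folds in some of the 4 lists. The region chr19:34592201-34600400, which overlaps *Ifit1bl1*, a gene of the interferon-induced IFIT family, had log2 folds of 0.89 and 0.43 in *Uhrf1* KO and 0.23 and 0.22 in *Dhx9* KO replicates 1 and 2. In the same order, folds were 0.85, 0.34, 0.62 and 0.23 at chr8:40943201-40952000 in *Pdgfrl*, and 2.13, 1.27, 0.25 and 0.75 at chr8:66601201-66607600, between genes. Just outside the rule, 2043 regions had a peak in all 4 knockout lists and in 1 wild-type list. The 3 weakest wild-type peaks among them had log2 folds of 0.23, 0.24 and 0.24, and the median over the 2043 was 1.18. The latter is as high as the median of the gained regions themselves in *Dhx9* KO replicate 2, so that many regions missed the rule through a wild-type peak of ordinary strength in a single library.

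The 5 strongest regions of at least 2 kb were between genes. At chr1:48288801-48292800 the libraries had 82, 53, 45 and 66 reads (first both *Uhrf1* KO libraries, then both *Dhx9* KO libraries, as in all such lists that follow), with log2 folds of 2.14, 2.80, 3.49 and 3.73. *Uhrf1* KO replicate 1 was called there over 4000 bp and the others over 600 to 800 bp. The nearest wild-type peak was 21000 bp away. At chr18:89991201-89993400 the reads were 47, 76, 66 and 70 and the folds 2.51, 3.10, 2.46 and 2.14. The reads were 45, 56, 44 and 80 at chr6:20607201-20609200 and 33, 54, 32 and 43 at chr6:18760601-18762800, which is repeat sequence over its whole length. The last, chr1:173024001-173027800, was 24.9% masked and lay 52400 bp from a wild-type peak, with 73, 85, 68 and 101 reads and folds of 3.03, 2.74, 2.00 and 2.02. These high folds rest on few background reads, between 4 and 27 per list in the 5 regions.

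The longest stretches called in all 4 lists were found elsewhere. The longest was 5200 bp at chr14:51591401-51597000 in *Gm17174* and *Gm5622*, where the reads were 210, 349, 505 and 598 and the folds only 0.73, 0.47, 0.36 and 0.61. A stretch of 3800 bp, centred between genes, lay in a region that overlaps the promoter of *Trpm6*, a magnesium channel of kidney and gut. The reads were 62, 208, 184 and 187 and the folds 1.00 to 1.56. A stretch of 3200 bp lay between genes on chromosome 15. Another 10 regions had stretches of 3000 bp, some in introns, and of these the 2 with the highest lowest fold are named here. The one at chr6:132535601-132539000 was 98.2% masked, with 82, 137, 112 and 103 reads, and the one at chr1:44947601-44951000 was 63.7% masked, with 97, 162, 131 and 185 reads.

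Protein-coding promoters, taken as 1 kb on each side of a start, were overlapped by 30 gained regions (3.19%). Such a region need not be centred there. Of the 10 strongest, only those at *Mrgpra2b* and *Gm609* had the shared stretch centred on a promoter. The strongest was at *Olfr1008*, an olfactory receptor gene, with 36, 65, 49 and 54 reads and log2 folds of 2.54, 2.68, 2.03 and 2.18. All 4 folds exceeded 2 there, and the region was 1800 bp from a wild-type peak. *Ifi208*, of the interferon-inducible Ifi200 family, had 143, 87, 53 and 133 reads, and *Mrgpra2b*, a receptor gene of sensory neurons, had 47, 88, 48 and 77. At *Arhgef33*, which encodes a predicted guanine nucleotide exchange factor, reads were 70, 111, 125 and 133, and the nearest wild-type peak was 24000 bp away. The others of the 10 strongest were *Gm10295*, *Olfr1387*, *Trpm6*, *Gm609*, *D16Ertd472e* and *Tob2*, an antiproliferative BTG/TOB family gene, whose lowest fold among the 4 lists was 0.85 to 1.43. *Uhrf1* KO replicate 1 had the fewest reads per kb called at every one of the 10, between 16.3 at *Trpm6* and the value at *Arhgef33*, 70 reads over 2800 bp.

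**Figure D2:**
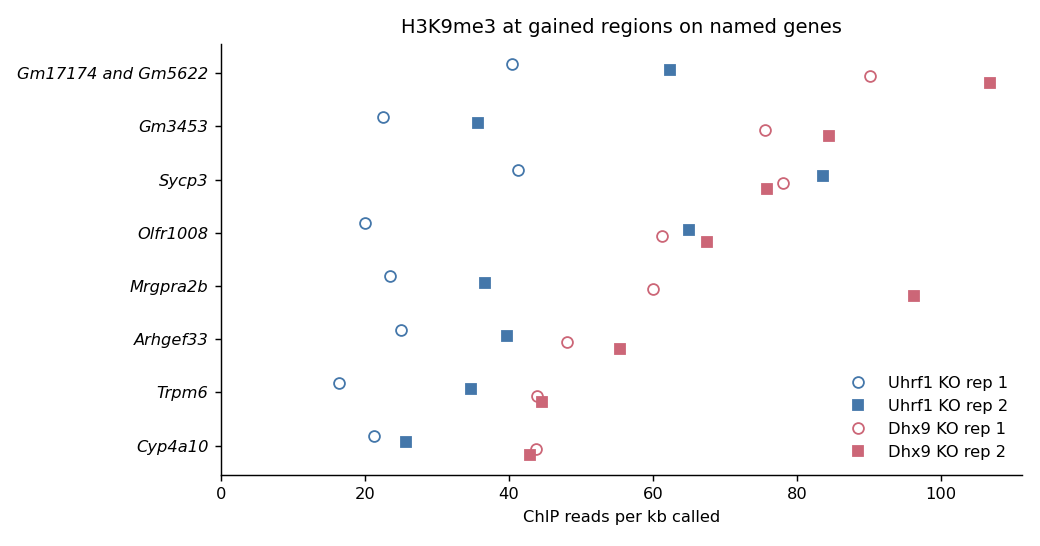
ChIP reads per kb called in each knockout library at 8 gained regions, named by the gene they overlap or whose promoter they overlap. *Uhrf1* KO replicate 1 is lowest at every one of them. At the *Gm17174* and *Gm3453* regions both *Dhx9* KO libraries lie above both *Uhrf1* KO libraries, and at *Sycp3* they lie between the *Uhrf1* KO replicates.

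Most gained regions were outside genes. Of the 940, 597 (63.5%) overlapped no annotated gene and 233 (24.8%) overlapped a protein-coding one. By the centre of the shared stretch, 631 (67.1%) were between genes, 257 (27.3%) in introns, 21 (2.23%) in exons and 31 (3.30%) on promoters of any gene. Over the 37609 regions called in all 4 knockout lists, the same shares were 61.6%, 30.6%, 3.23% and 4.61%. Of all merged regions, 54.3% were between genes. Regions gained in *Dhx9* KO only, 3587 with a peak in both *Dhx9* KO lists and no other, were less often between genes (56.1%), and the 1163 gained in *Uhrf1* KO only were close to the shared ones (66.0%). No test was made of these shares, since regions are not replicates.

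The gene lists gave few gained regions, with shares of 0 to 3.49% beside the 2.5% over all regions with a peak in all 4 knockout lists. Of 46 such regions on imprinted genes, 0 were gained. Genes with Zfp or related symbols, most of which encode KRAB zinc finger proteins, had 4 of 219 (1.83%), namely *Zfp708*, *Zfp758*, *Zfp385b* and *Zfp407*, of which the last pair are not of the KRAB type. Olfactory receptor genes had 6 of 172 (3.49%), 4 of them overlapping a promoter, and *Olfr741*, with 51, 95, 58 and 54 reads, was the strongest after *Olfr1008*. Vomeronasal receptor genes, for pheromone detection, had 2 of 128 (1.56%), at *Vmn2r85* and *Vmn1r219*. Genes for neuronal adhesion and synapses, many of them very long, had 11 of 413 (2.66%). These included 3 in *Gpc6*, a cell surface proteoglycan, and 1 each in *Opcml*, an adhesion molecule, and *Dlg2*, a synaptic scaffold. All 11 were in the gene bodies, none on a promoter.

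Cytochrome P450 genes had 2 of 80 (2.5%), at *Cyp2c67* and *Cyp4a10*. The *Cyp4a10* region spans 12600 bp of chromosome 4 and had 68, 72, 551 and 249 reads. *Dhx9* KO replicate 1 was called there over 12600 bp, where the *Uhrf1* KO libraries were called over 3200 and 2800 bp. Clustered protocadherin genes (15 regions), two-cell stage genes (15), H3K9 and DNA methylation factors (3), pluripotency genes (3), lineage transcription factors (18), serpins (34), keratins (39) and defensins (12) had 0 gained regions. These lists are small, and a count of 0 among so few regions does not set them apart from the rest.

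Germline genes, several of which are silenced by promoter DNA methylation in mESCs, had 1 of 39 (2.56%). It was the promoter of *Sycp3*, which encodes a protein of the synaptonemal complex, at chr10:88459201-88460600. The libraries had 33, 117, 78 and 91 reads there, with log2 folds of 1.06, 1.28, 0.64 and 0.63. Its 1400 bp were 4.07% masked. Its central window, printed above, is CpG-rich, and the region is little masked. Only 31 gained regions (3.3%) were under 10% masked, and the median masked share was 37.2%. The annotation places *Chpt1* at the same position, and reads of the 2 genes cannot be told apart.

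In GC content the gained regions lay below the regions called in all 4 knockout lists and above the genome. Their GC content was 42.5% ± 2.77 (SD over 940 regions). The mean was 44.6% over regions called in all 4 knockout lists, 43.2% over those gained in *Uhrf1* KO only, 44.7% over those gained in *Dhx9* KO only and 41.9% over the 19 chromosomes. CpG density had a median of 7.58 per kb, beside 9.69, 8.75 and 6.94 for the same 3 classes. Over all merged regions, mean GC content was 45.5% and median CpG density 9.09 per kb. Split by GC content, the share of regions that were gained fell from 5.16% in the lowest quintile of the regions called in all 4 lists through 3.58%, 2.14% and 0.997% to 0.625% in the highest quintile.

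Length differed as well and cannot be kept apart from the rule. Peaks of all 6 lists were merged, so a wild-type peak can lengthen a region, which is then not gained. GC content and masked share were measured over that whole length. A limit on length, as used below, does not remove this, and its part was not tested. The gained regions had a median length of 3600 bp, beside 6200 bp over regions called in all 4 lists, and the share gained fell from 6.06% in the shortest quintile to 0.0399% in the longest. Among the 15537 regions of up to 5.2 kb, of which 767 were gained (4.94%), the share still went from 8.14% in the lowest GC quintile to 2.00% in the highest. Between the ends it was 5.31%, 5.60% and 3.64%, so that it did not fall at every step. For CpG density the lowest quintile of short regions had 7.53% and the others 3.64% to 4.89%.

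**Figure D3:**
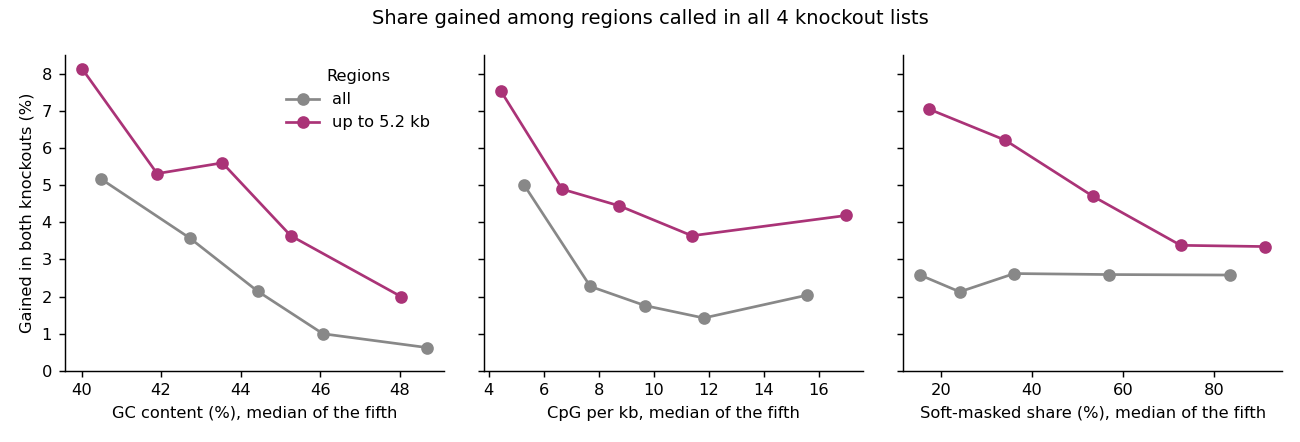
Share of regions called in all 4 knockout lists that were gained (%), by quintiles of GC content, CpG per kb and soft-masked share, for all 37609 regions (grey) and for the 15537 of up to 5.2 kb (purple). Each point is a quintile placed at its median. The share gained is highest at low GC content in both, while it does not vary with masked share over all regions and falls with it among short ones.

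Repeat content was close to that of the regions called in all 4 knockout lists and above that of all merged regions. The soft-masked share averaged 44.1% over the gained regions (SD 26.1, median 37.2%), 43.3% over regions called in all 4 knockout lists and 33.5% over the 19 chromosomes. Over all merged regions it averaged 37.0%. Regions gained in *Uhrf1* KO only had 46.9% and those gained in *Dhx9* KO only 34.0%, so that the gained regions were nearer to the former. Of the gained regions, 124 (13.2%) were over 80% masked and 197 (21.0%) under 20%. The masked ones were stronger. The median of the lowest fold among the 4 lists was 1.09 in those over 80% masked and 0.72 in those under 20%, and the median background in *Dhx9* KO replicate 1 was 18.7 and 21.5 reads per kb. Among short regions the share gained was 7.05% in the least and 3.35% in the most masked quintile.

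**Figure D4:**
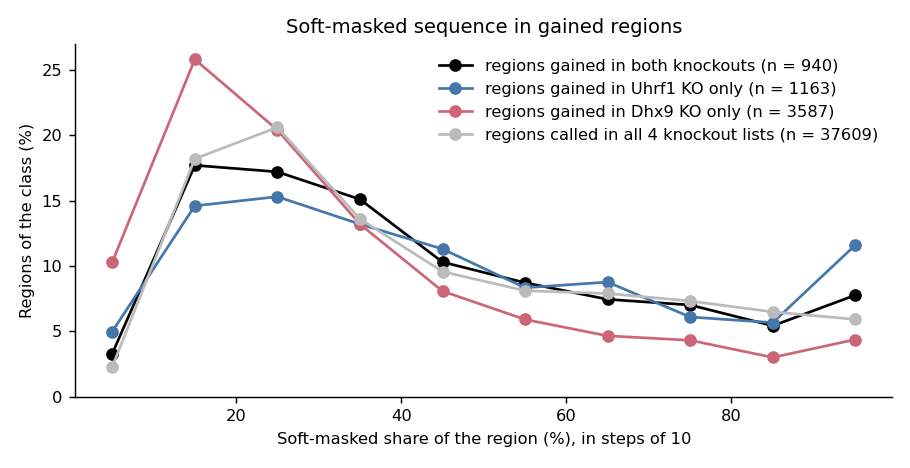
Share of each class of regions (%) by soft-masked share in steps of 10 percentage points. Regions gained in both knockouts follow those called in all 4 knockout lists, with 7.77% and 5.92% in the last step, where regions gained in *Uhrf1* KO only have 11.6%, and regions gained in *Dhx9* KO only peak at 25.8% between 10 and 20% masked.

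Repeats differ in how often they occur. Of the 31-base words sampled from the central 1000 bases, 76.1% occurred once on the 19 chromosomes in the gained regions, 71.1% in regions called in all 4 knockout lists, 69.8% in those gained in *Uhrf1* KO only and 85.8% in those gained in *Dhx9* KO only. Words with over 100 copies made up 10.6% in the gained regions and 10.7% in regions called in all 4 lists. Reads from such words can be placed at any of the copies. Among motifs, the core of the ZFP57 site, TGCCGC on either strand, was present in the central 1000 bases of 58 gained regions (6.17%). It was present in 11.8% of regions called in all 4 lists, 10.2% of those gained in *Uhrf1* KO only, 5.85% of those gained in *Dhx9* KO only and 8.57% of all merged regions. ZFP57 holds heterochromatin at methylated imprinted loci, and the core contains a CpG, the density of which was also lower in the gained regions. A CA repeat of 20 bases was in 8.40% of gained regions and 6.70% of those called in all 4 lists, a GA repeat of 20 bases in 2.45% and 2.92%, an A run of 20 bases in 2.02% and 1.48%, and the doubled telomere repeat in none and 0.162%. A match is a description of these windows and not a bound site.

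Gained regions lay about as near to a wild-type peak as other regions without such a peak. The nearest wild-type peak was at a median of 5200 bp, within 1 kb for 101 regions (10.7%), within 5 kb for 464 (49.4%), within 10 kb for 657 (69.9%) and within 50 kb for 918 (97.7%). The farthest was 115400 bp away. The distance was close to that of regions gained in one genotype only, which had medians of 5400 bp for *Uhrf1* KO and 5200 bp for *Dhx9* KO. Over all 44301 merged regions without a wild-type peak the median was 5600 bp, and 47.6% had one within 5 kb. The gained regions were spread out among themselves, at a median of 600.8 kb from the next one, and 156 (16.6%) had another within 100 kb. The densest window of 1 Mb was chr4:4553201-5255400, with 9 gained regions among 40 called in all 4 lists, none on a protein-coding gene. The next had 5 each, and the one on chromosome 15 included *Yaf2*, whose product is a partner of Polycomb RING proteins.

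The regions were uneven over chromosomes, and part of this moved with a single library. On chromosome 4, 102 of 2461 regions called in all 4 knockout lists were gained (4.14%), on chromosome 14 66 of 1811 (3.64%), on chromosome 3 86 of 2465 (3.49%), and on chromosome 8 only 11 of 2223 (0.495%). Among short regions the values were 7.88% on chromosome 4 and 1.04% on chromosome 8. In regions called in all 6 lists, the median log2 difference in reads per kb from wild-type, each library centred on its own median, was 0.16 on chromosome 4 in *Dhx9* KO replicate 1 and -0.03 to -0.04 in the other 3 knockout libraries. On chromosome 8 it was -0.14 in *Dhx9* KO replicate 1, -0.10 and -0.11 in *Uhrf1* KO replicates 1 and 2, and 0.02 in *Dhx9* KO replicate 2. When the rule was applied without *Dhx9* KO replicate 1, 5.18% of regions were gained on chromosome 4, beside 5.37% over all chromosomes. The excess on chromosome 4 was thus not seen without that library. Chromosome 8 rose from 0.495% to 3.05% and stayed lowest, close to chromosome 19, which went from 1.07% to 3.23%. Chromosome 3 was then highest with 7.41%, followed by chromosome 14 with 6.83%. Copy number of a chromosome and H3K9me3 density on it cannot be told apart in these lists.

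**Figure D5:**
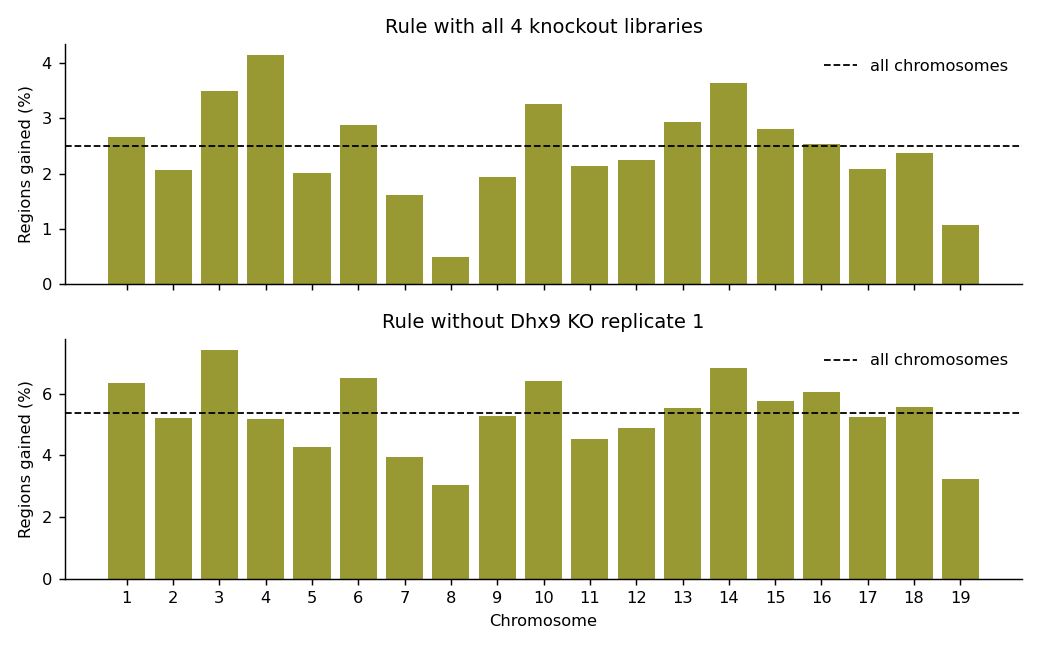
Share of regions called in the knockout lists that were gained (%), by chromosome, with all 4 knockout libraries (top) and without *Dhx9* KO replicate 1 (bottom). The dashed line is the share over all 19 chromosomes, 2.5% and 5.37%. Chromosome 4 is highest in the first and below the line in the second, and chromosome 8 is lowest in both.

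The reads of the knockouts were also compared with each other, which the rule does not do directly. It is not free of the rule, however: the *Uhrf1* KO lists hold fewer background reads, 11.1 and 11.7 per kb over the gained regions against 20.9 and 20.4 in *Dhx9* KO, so that a peak there can pass with fewer ChIP reads. The values for the gained regions are therefore read only beside those of all regions fitted. Regions called in all 4 knockout lists and covered over at least 80% in each were compared between *Uhrf1* KO and *Dhx9* KO libraries with edgeR's quasi-likelihood test. Of 1639 such regions, 18 (1.1%) had fewer reads in *Uhrf1* KO and 1 (0.061%) had more, at a Benjamini-Hochberg false discovery rate of 0.05. Only 41 gained regions met the requirement on coverage. Of these 41, 2 had fewer reads in *Uhrf1* KO and 0 had more. At an unadjusted p under 0.05 the numbers were 8 and 0 of the 41 (19.5% and 0%), beside 164 and 99 of all 1639 (10.0% and 6.04%), and the median log2 difference, *Uhrf1* KO minus *Dhx9* KO, was -0.30 in the 41 and -0.02 in all 1639. The other 899 were covered less evenly. When all 37609 regions called in the 4 lists were fitted, the sign of both medians turned. The median log2 difference was 0.07 over the 940 gained regions, still below the 0.11 over all. At an unadjusted p under 0.05 there were 4 lower and 23 higher gained regions (0.426% and 2.45%), beside 0.755% and 6.76% of all regions.

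Both regions past the threshold are on chromosome 14, in *Gm* gene models. At chr14:5972601-5974400 in *Gm3453*, reads were 36 and 57 in the *Uhrf1* KO libraries and 136 and 135 in the *Dhx9* KO libraries. Over the called lengths this is 22.5 and 35.6 against 75.6 and 84.4 reads per kb, so that the groups do not overlap. The log2 difference was -1.30 (SE 0.279), with an edgeR adjusted p of 0.0222. In reads per kb called, both *Dhx9* KO libraries were above both *Uhrf1* KO libraries at 40.3% of all 37609 regions. The *Gm17174* and *Gm5622* region, whose central sequence is printed above, had 40.4 and 62.3 against 90.2 and 106.8 reads per kb and a log2 difference of -0.75 (SE 0.176), with an edgeR adjusted p of 0.0359. The first was 76.1% and the second 15.8% soft-masked, and each lay 800 bp from a wild-type peak. The background reads moved the same way, with 33 and 33 against 101 and 98 in the first and 184 and 199 against 393 and 393 in the second. Their part in the difference was not tested. Neither call held without *Uhrf1* KO replicate 1, *Uhrf1* KO replicate 2 or *Dhx9* KO replicate 1, under each of which 0 gained regions passed. The number was also 0 when library sizes were taken as equal and when all regions called in the 4 lists were fitted, and 1 with DESeq2.

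The order of the libraries at the gained regions was close to that at other regions. Reads per kb called were higher in both *Dhx9* KO than in both *Uhrf1* KO libraries at 427 of the 940 regions (45.4%) and lower in both at 3 (0.319%), beside 40.3% and 0.261% of all regions called in the 4 lists. When each library was taken relative to its density over regions called in all 6 lists, these numbers were 290 (30.9%) and 78 (8.30%), beside 32.8% and 10.4%. These counts run over the members chosen for peaks in all 4 lists and carry no test.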

How the data were processed

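Lists of H3K9me3 peaks from 6 mESC libraries, 2 each of WT, UHRF1KO and DHX9KO, were grouped by the sample labels. The other samples of the study (inputs, and those from before establishment, after establishment and from maintenance) were not analysed here. The authors mapped single-end reads to mm10 with Bowtie2 2.3.4.3, drew subsamples, and ran epic2 (SICER 0.0.51 in the submitters' processing notes) on each library in bins of 200 bp with duplicates kept. Every deposited peak has unnormalized read counts for ChIP and background, a p-value and false discovery rate, a log2 fold that accounts for library size, and a score derived from that fold, which was not used. The 6 lists hold 67953 to 124071 peaks on the 19 autosomes, with 14 to 27 ChIP reads in the smallest peak.

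Peaks were merged and placed on the GENCODE vM21 annotation and the mm10 reference (GRCm38) with Python 3.11.15, numpy 2.4.6, pandas 2.3.3 and scipy 1.17.1. Positions are 1-based. Sequence matches were sought with blastn 2.17.0. Reads were compared with edgeR 4.0.16 in R 4.3.3 (TMM, called length as offset), with DESeq2 1.42.0 as an alternative. The low-count filter removed 0 regions. On simulated data for the comparison of UHRF1KO with DHX9KO over 1639 regions, 180 of 200 regions changed 2-fold were recovered beside 9 false calls. The simulation used a fixed dispersion, not an estimate from these libraries, so it does not measure recovery in them. Libraries were not copies of one another: peaks with the same limits had the same ChIP count in at most 2.63% of cases. Counts cover counting error only.

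Members, gene lists and tests were chosen with earlier results of these data known. The regions named are the 5 strongest of 2 kb or longer, the 5 with the longest shared stretch (ties went to the region whose weakest fold was higher), the 10 strongest on protein-coding promoters, the strongest of each gene list, those past the edgeR threshold and those nearest to the edge of the rule. Zfp407, Chpt1, Yaf2 and the third Gpc6 region were named after their values were seen. Alternatives were stricter peak filters, equal numbers of peaks, other merging and overlap, another wild-type margin, each library left out, and other edgeR settings.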

Additional observations from a re-analysis of the deposited data

Results flagged for a closer look

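In all, 2 gained regions differed in ChIP reads between the knockouts in the direct edgeR comparison of *Uhrf1* KO with *Dhx9* KO. The *Gm3453* region on chromosome 14 had a log2 difference of -1.30 and the *Gm17174* and *Gm5622* region one of -0.746, both lower in *Uhrf1* KO in each pairing of a *Uhrf1* KO with a *Dhx9* KO library. Background counts at both regions were likewise lower in *Uhrf1* KO, and the difference was not tested apart from them. At the *Gm17174* and *Gm5622* region the log2 folds over background, 0.73 and 0.47 against 0.36 and 0.61, overlapped between the genotypes.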

How the results depend on the processing

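The number of gained regions depended on how peaks were counted. It was 144 when knockout peaks had to pass a false discovery rate of 1e-10, 359 when their log2 fold had to reach 1, 476 with no wild-type peak within 5 kb, and 2443 with 1 of the 2 *Uhrf1* KO lists sufficing (chosen after seeing the data). It was 813 to 994 under the other planned settings, and 1237 to 2318 with a library left out, when the rule asks for fewer lists (1834 and 2130 without wild-type replicates 1 and 2, 1997 and 1498 without those of *Uhrf1* KO, 2318 and 1237 without those of *Dhx9* KO). With equal numbers of peaks per list, 994 regions were gained but only 499 of the 940 were among them. Mean GC content was 41.8%, 42.1%, 43.6% and 43.3% under the false discovery rate, log2 fold, equal-number and looser rules, and 42.2% to 43.8% with a library left out. The soft-masked share was 56.8%, 55.4%, 41.5% and 40.6%, and 40.3% to 46.5%. The share between genes was 74.3%, 75.2%, 64.1% and 62.6%, and 61.5% to 68.4%. The cause of these shifts was not tested.

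In the edgeR comparison, regions lower and higher in *Uhrf1* KO numbered 18 and 1. They were 25 and 4 if called length was left out of the model, 0 and 0 with equal library sizes, 12 and 49 over all regions called in the 4 knockout lists, 1 and 0 with the replicate block, and 0 to 37 and 0 to 8 with a library left out, most without *Dhx9* KO replicate 2. Of the gained regions, 2 were lower by edgeR, 1 by DESeq2, 0 with equal library sizes or the replicate block, 0 over all regions, where 1 was higher, and 0 to 2 with a library left out. Replicate numbers did not pair the samples: the correlation of deviations was -0.00288. The difference in relative density over the gained regions was -13.6 percentage points in the 41 regions covered over at least 80%, in place of -7.98. *Uhrf1* KO replicate 1 had the fewest reads inside its peaks, and the absence of a wild-type peak is not the absence of reads.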
